A study of Mus musculus with 12 samples.

Results

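Clec4f, Vsig4, Timd4, Cd5l, Marco, C1qa, C1qb, C1qc, Lyz2 and Csf1r are genes of Kupffer cells, the macrophages resident in the liver sinusoids, and of macrophages at large. They were taken by gene symbol and make up 10 of the 52459 genes in the count table. Kupffer cells are seeded before birth and renew in place, and when they are lost in a diseased liver, monocytes from the blood can settle there and acquire part of the resident gene set over time. In the mouse, Clec4f is the gene here most closely tied to Kupffer cells, whereas Vsig4, Timd4, Cd5l and Marco are shared with some other tissue macrophages. The C1q chains are made by most tissue macrophages, and Lyz2 and Csf1r are carried by monocytes and macrophages alike, Lyz2 also by neutrophils.

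None of the libraries was sorted for macrophages. RNA came from T cells sorted by flow cytometry straight into lysis buffer, and the study was of steatohepatitis, in which a fatty liver is also inflamed. The 6 groups held 2 libraries each. γδ T cells came from wild type C57BL/6 mice on a methionine- and choline-deficient (MCD) diet or on a control diet. CD4+ T cells came from γδTCR-/- mice, bred without the γδ T cell receptor (KO below), on the MCD or the control diet, and from wild type C57BL/6 mice (WT) on the MCD or the control diet. All mice were 7 weeks old when the diets began and ate them for 6 weeks. No label gives the organ, the sorting gate or the animal behind each library, so p-values measure the spread between these libraries, which may be technical. In sorted bulk material, fewer macrophages and less RNA per macrophage cannot be told apart. Replicates keep the numbers in the labels, and values are given in the order 2 and 4 for γδ MCD, 6 and 7 for γδ control, 1 and 2 for KO MCD and KO control, 1 and 3 for WT MCD and 2 and 3 for WT control. The γδ MCD replicate 2 has a hyphenated name in its title that no label explains.

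Libraries held 17035638 to 23203603 counts. Mitochondrial genes took 56.8% and 53.8% of these counts in γδ MCD and 54.6% and 56.2% in γδ control libraries. Their share was 43.9% and 41.1% in KO MCD, 52.7% and 51.1% in KO control and 40.8% to 43.9% in WT CD4+ libraries. Other genes held 7977220 and 9000102 counts in γδ MCD, against 9559392 to 10851934 in all other libraries. Replicate 2 and replicate 4 of the γδ MCD group had 8989 and 10125 genes with at least 10 counts, fewer than γδ control (12174 and 11903) and CD4+ libraries (12100 to 13402). Of the 16218 genes tested, γδ MCD lacked any count for 32.0% and 27.1%, γδ control for 16% and 17.9%, and the CD4+ libraries for 8.74% to 16.1%. The δ-chain constant gene Trdc read 623 and 538 CPM (counts scaled by TMM to a common library size) in γδ MCD, 733 and 647 CPM in γδ control and 0.231 to 7.93 CPM in CD4+ libraries of both genotypes. The labels do not name the gene removed in γδTCR-/- mice, and CD4+ T cells carry little Trdc in either genotype, so its level is no check of the genotype. A floor of 3 counts in a library stood for 0.248 and 0.202 CPM in γδ MCD and 0.153 and 0.162 CPM in γδ control libraries, which covers counting error only.

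The 3 C1q genes lie side by side on the minus strand of mouse chromosome 4 (GRCm38), C1qb at 136880129 to 136886187, C1qc at 136889804 to 136893065 and C1qa at 136895917 to 136898803, a stretch of 18675 bases. Clec4f lies on chromosome 6 (83644542 to 83656187), Vsig4 on X (96247203 to 96293438), Timd4 on 11 (46810800 to 46844332), Cd5l on 3 (87357881 to 87371073), Marco on 1 (120474538 to 120505024) and Lyz2 on 10 (117277331 to 117282321). All are protein-coding genes in the annotation. The promoters of the C1qb and C1qc genes, which were both lower on the MCD diet in γδ libraries, are shown with those of Clec4f, which had no counts there, and of Lyz2, which was not lower. Each sequence is RefSeq's (GRCm38.p6), 5′ to 3′, 250 bases before to 50 bases after the start of the gene used there. That start is not the one in the gene positions above, which came from another annotation. Capitals mark GAGGAA, a core that PU.1 can bind, on either strand (TTCCTC on the other), and the windows of Clec4f and Lyz2 hold none. PU.1 is a known regulator of macrophage genes.
C1qb (chr4:136886151-136886450, minus strand): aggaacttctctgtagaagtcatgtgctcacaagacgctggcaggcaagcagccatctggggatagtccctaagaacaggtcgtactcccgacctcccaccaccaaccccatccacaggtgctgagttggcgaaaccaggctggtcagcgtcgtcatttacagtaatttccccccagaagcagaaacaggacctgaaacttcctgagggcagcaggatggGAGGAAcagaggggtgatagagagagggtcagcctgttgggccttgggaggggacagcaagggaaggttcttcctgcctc
C1qc (chr4:136892865-136893164, minus strand): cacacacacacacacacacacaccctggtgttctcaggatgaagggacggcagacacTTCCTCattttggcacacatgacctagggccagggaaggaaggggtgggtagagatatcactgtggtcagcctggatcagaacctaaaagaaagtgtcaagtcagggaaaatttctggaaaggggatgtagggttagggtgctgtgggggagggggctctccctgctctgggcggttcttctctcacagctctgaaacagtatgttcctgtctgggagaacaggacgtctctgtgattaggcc
Clec4f (chr6:83656067-83656366, minus strand): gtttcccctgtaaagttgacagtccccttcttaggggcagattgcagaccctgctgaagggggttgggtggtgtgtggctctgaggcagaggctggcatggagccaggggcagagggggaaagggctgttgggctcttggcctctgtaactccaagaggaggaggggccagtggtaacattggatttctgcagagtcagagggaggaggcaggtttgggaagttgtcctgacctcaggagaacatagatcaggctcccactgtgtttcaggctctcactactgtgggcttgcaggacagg
Lyz2 (chr10:117282223-117282522, minus strand): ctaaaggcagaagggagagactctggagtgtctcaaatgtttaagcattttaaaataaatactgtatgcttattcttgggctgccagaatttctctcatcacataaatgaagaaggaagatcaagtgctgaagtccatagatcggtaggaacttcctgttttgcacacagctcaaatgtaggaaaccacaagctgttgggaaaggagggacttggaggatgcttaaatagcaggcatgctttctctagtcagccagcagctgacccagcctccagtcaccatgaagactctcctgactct
GAGGAA was found in the windows of 5 of the 8 genes looked up (C1qb, C1qc, Cd5l, Marco and Vsig4) and in 28.3% of all 32851 promoter windows of the same length. A match is a run of letters and not a site, and the absence of one in these windows says nothing about the factor.

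The γδ libraries bear on how the resident Kupffer genes stood against Lyz2 and Csf1r on each diet. Clec4f, a lectin receptor of Kupffer cells, had no counts in either γδ MCD library, and C1qb and C1qc were several-fold lower there, while Lyz2 and Csf1r, the general macrophage genes, were as high as on the control diet or higher. Vsig4 went against the other resident genes in replicate 4. By edgeR's quasi-likelihood test, with adjustment over all 16218 genes, 0 of the 9 members tested passed at 0.05, as did 0 of all genes (0%). At an unadjusted p under 0.05 there were 2 members, Clec4f and C1qc, both lower, against 11.2% of all genes lower. DESeq2 called 1 member, Clec4f, lower, against 9.96% of genes. The 9 members had a median log2 fold change of -0.60, with 3 higher and 6 lower, against -0.06 over all genes, of which 42.5% were higher and 51.3% lower.

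Clec4f had 0 and 0 counts in γδ MCD libraries, against 155 and 45 counts in γδ control libraries (7.88 and 2.44 CPM). The groups did not overlap, and Clec4f was at least 23-fold lower on the MCD diet when both MCD libraries were set at the floor of 3 counts. Its fitted log2 fold change was -5.70 (edgeR adjusted p = 0.178), and DESeq2 gave an adjusted p of 0.00543. Absence from both γδ MCD libraries was not rare in itself: of the 11663 genes tested with a control mean of at least 1 CPM, 922 (7.91%) were at 0 in both, Clec4f among them. Timd4, a receptor for phosphatidylserine on dying cells, had 0 and 0 counts in γδ MCD, against 4 and 45 counts in γδ control libraries. Timd4 was too scarce over the 12 libraries to be tested, and the ratio to the floor was at least 5.88-fold lower. That ratio rested mainly on the 45 counts of γδ control replicate 7.

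Cd5l, which encodes a secreted protein of macrophages that binds lipids, read 2.06 and 0.202 CPM in γδ MCD libraries, against 6.51 and 5.36 CPM in γδ control libraries. The groups did not overlap, and the mean was 5.24-fold lower on the MCD diet (log2 fold change -2.30, adjusted p = 0.556). The lower MCD value, in replicate 4, rested on 3 counts, against 25 counts in replicate 2. Vsig4, a complement receptor that captures particles coated with C3 fragments, read 0.248 and 27.6 CPM in γδ MCD, against 5.54 and 18.4 CPM in γδ control libraries. The MCD libraries thus held both the lowest and the highest of the 4 values, 3 and 411 counts, on either side of the control libraries with 109 and 340 counts. The difference by diet depended on that one library: the log2 fold change was 0.22 with all libraries (adjusted p = 1), 1.20 without γδ MCD replicate 2 and -5.12 without replicate 4. Marco, a scavenger receptor for bacteria and particles, had 1 and 0 counts in γδ MCD, against 3 and 0 counts in γδ control libraries, at or under the floor in all 4.

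**Figure D1:**
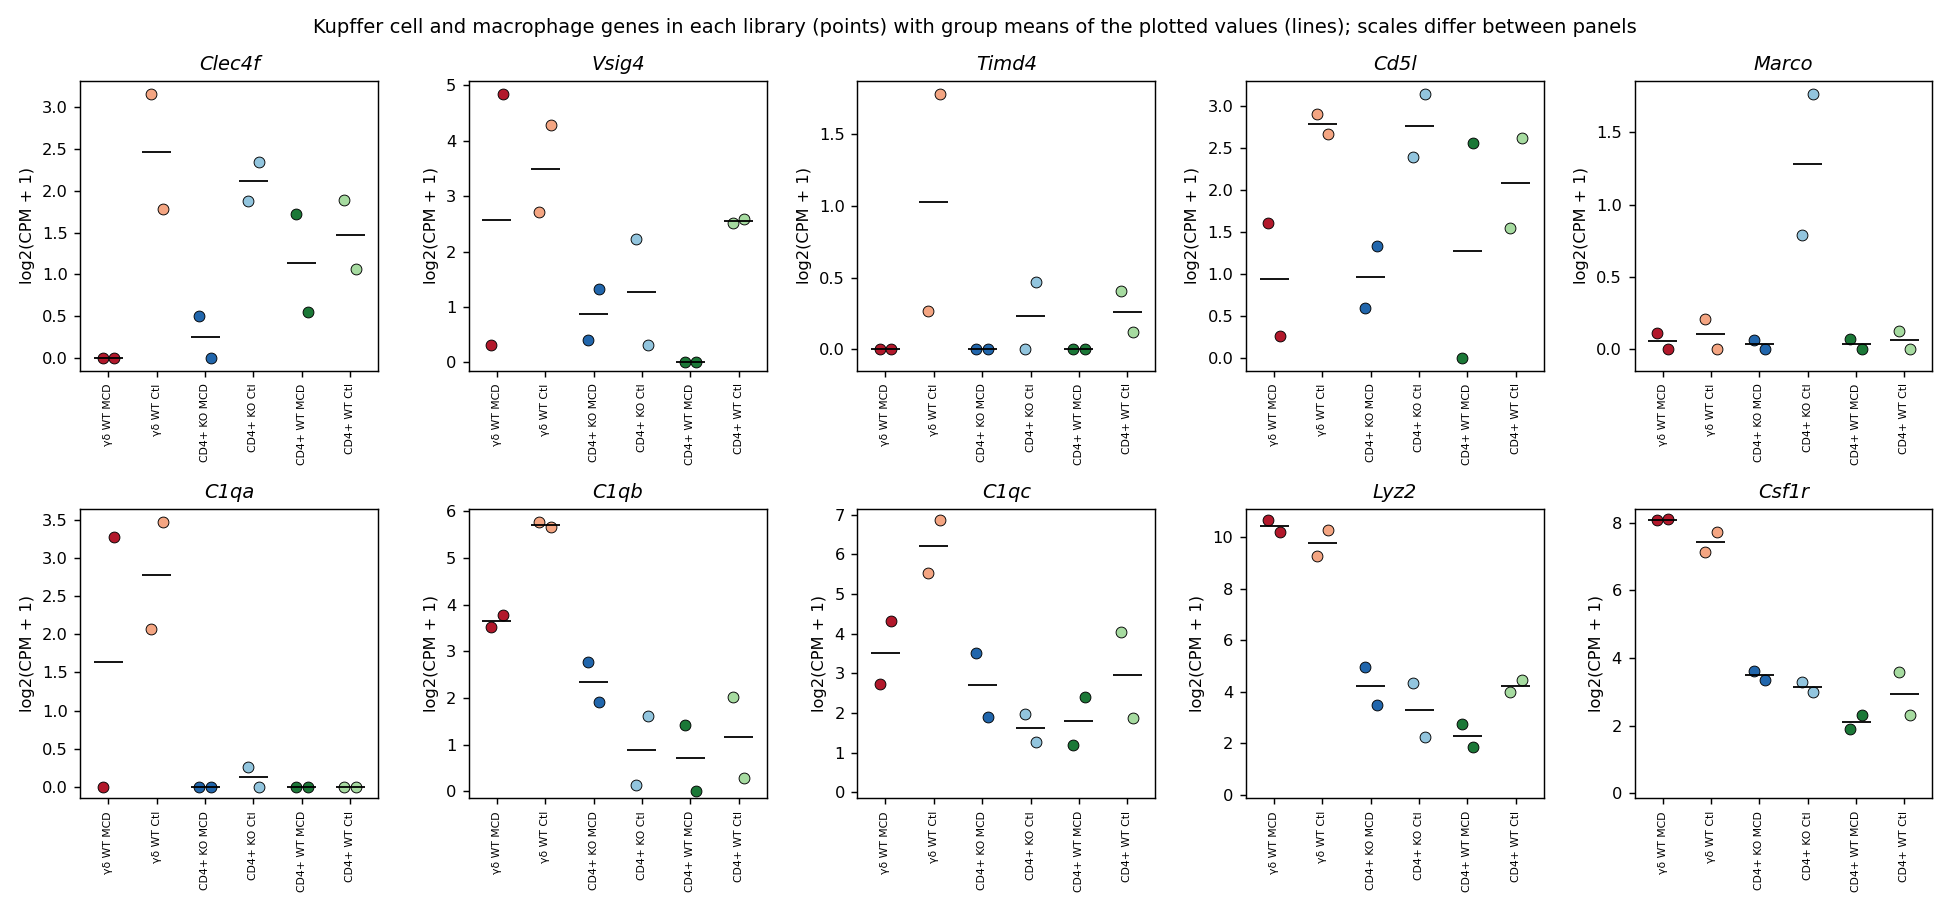
Level of each of the 10 genes in each library as log2(CPM + 1) on the vertical axis, with 1 point per library and a line at the mean of the 2 plotted values; γδ T cells stand left, then CD4+ T cells of γδTCR-/- (KO) and wild type (WT) mice, each with the MCD diet left of the control diet (Ctl). Vertical scales differ between panels. Lyz2 and Csf1r are far higher in all 4 γδ libraries than in any CD4+ library, Clec4f is at 0 in both γδ MCD libraries, and the γδ MCD points of Vsig4 and C1qa lie far apart.

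The C1q genes encode the A, B and C chains of the complement component that binds antibody complexes and dying cells. C1qb had 126 and 188 counts in γδ MCD libraries, against 1048 and 909 counts in γδ control libraries, or 10.4 and 12.6 CPM against 53.3 and 49.2 CPM. Both pairs were tight and lay apart, with a mean 4.45-fold lower on the MCD diet: 11.5 ± 1.58 CPM in γδ MCD and 51.3 ± 2.89 CPM in γδ control libraries (SD, n = 2 each). The test pools the spread of each gene over all 6 groups, and C1qb did not pass it (log2 fold change -2.14, SE 1.70, adjusted p = 0.511). C1qc had 5.61 and 19.0 CPM in γδ MCD, against 45.4 and 115.5 CPM in γδ control libraries. The diets did not overlap here either, and the mean was 6.54-fold lower on the MCD diet (log2 fold change -2.70, SE 1.16, adjusted p = 0.254). C1qa was at 0 in γδ MCD replicate 2 and at 8.67 CPM in replicate 4, against 3.20 and 10.1 CPM in γδ control libraries. These values overlapped, and leaving out 1 library took the log2 fold change of C1qa (-0.60 with all libraries) anywhere between -6.08 and 0.43.

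Per unit of length the chains were unequal. The deposited FPKM divides counts by gene length and by a DESeq2-type size factor of the library. C1qb read 9.68 and 11.4 FPKM in γδ MCD, against 45.5 and 42.9 in γδ control libraries, and C1qc read 2.94 and 9.69 against 21.8 and 56.7. C1qa read 0 and 8.20 FPKM in γδ MCD, against 2.86 and 9.17 FPKM in γδ control libraries. Thus the ratio of C1qb to C1qa was 1.39 in γδ MCD replicate 4 and 15.9 and 4.67 in the γδ control libraries, and that of C1qc to C1qa was 1.18 in the same MCD library and 7.63 and 6.18 in the control libraries.

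Lyz2, which encodes the lysozyme of monocytes, macrophages and neutrophils, was the most abundant member per length in every γδ library, at 1244 and 881 FPKM in γδ MCD, against 434 and 901 FPKM in γδ control libraries. In CPM it read 1616 and 1178 in γδ MCD, against 616 and 1252 in γδ control libraries. The second MCD value lay between the control values, so the groups overlapped, and the 1.5-fold higher mean was within the spread (log2 fold change 0.58, 95% interval -0.80 to 1.96, adjusted p = 0.663). Csf1r, the receptor for the macrophage growth factors CSF1 and IL-34, read 269 and 273 CPM in γδ MCD, against 138 and 212 CPM in γδ control libraries. Both MCD values were above both control values, at 271 ± 2.78 CPM in γδ MCD and 175 ± 51.7 CPM in γδ control libraries (SD, n = 2 each), but the 1.55-fold difference did not pass the test (log2 fold change 0.63, 95% interval -0.43 to 1.69, adjusted p = 0.504). Among the 9 members tested, Csf1r was the 1 that did not overlap upwards, against 11.1% of all genes, and Clec4f, Cd5l, C1qb and C1qc the 4 that did not overlap downwards, against 22.1%. Timd4, which was not tested, did not overlap downwards either, though γδ control replicate 6 held only 4 counts of it (0.203 CPM), near the floor. Lyz1, a near-identical copy 5475 bases from Lyz2, had 18 and 1 counts in γδ MCD and 0 and 14 counts in γδ control libraries; how the counting shared reads between the copies is not given in the sources used here, so the split is uncertain. Csf1r overlaps Hmgxb3 on the other strand, and whether strand was used in counting is not given either.

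**Figure D2:**
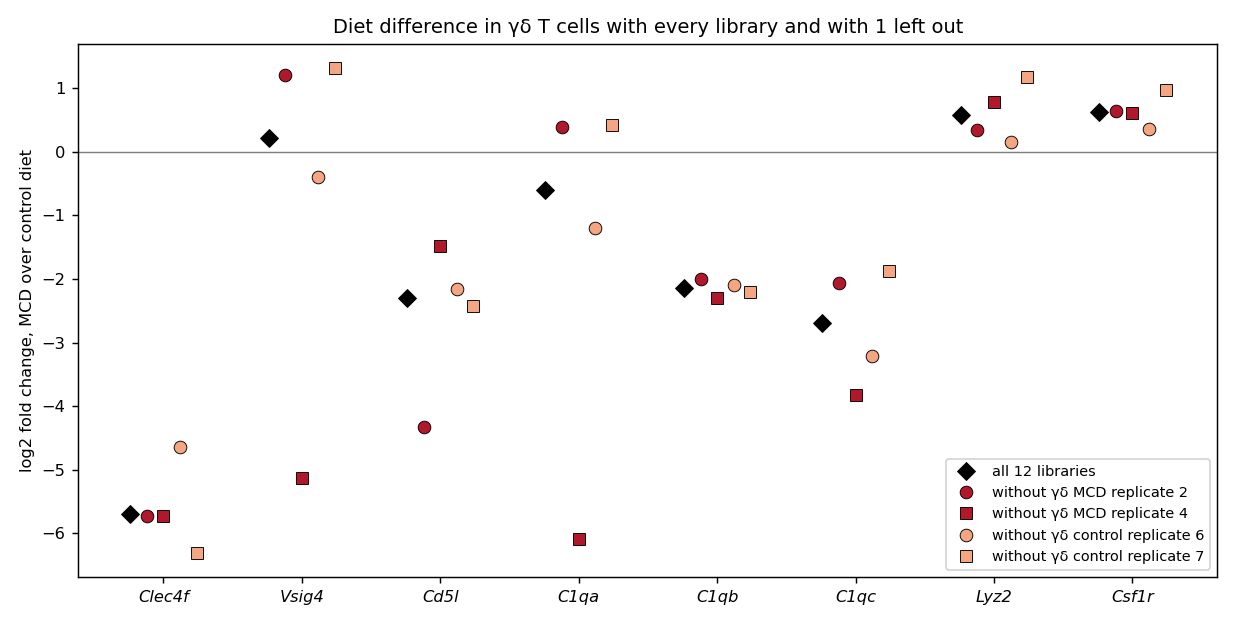
Log2 fold change of 8 members between the MCD and the control diet in γδ T cells (vertical axis; above 0 is higher on the MCD diet), from the edgeR fit of all 12 libraries (black) and with 1 γδ library left out (coloured). C1qb stays between -2.29 and -2.01 and Clec4f between -6.30 and -4.64, whereas Vsig4 runs between -5.12 and 1.32 and C1qa between -6.08 and 0.43.

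Set against the general macrophage genes, the resident genes behaved differently in the 2 γδ MCD libraries. Clec4f, Vsig4, Timd4, Cd5l and Marco together had 1.48 and 23.6 counts per 1000 Lyz2 counts in γδ MCD, against 33.0 and 22.9 in γδ control libraries. Replicate 2 lay far below both control libraries, and replicate 4 lay between them. Per 1000 Csf1r counts the 5 genes had 8.88 and 102 in γδ MCD, against 147 and 135 in γδ control libraries, so here both MCD libraries were below. The difference in mean log2 ratio was -2.20 against Lyz2 (SD 2.81 in γδ MCD, 0.37 in γδ control) and -2.22 against Csf1r, smaller than the SD between the MCD libraries. Without γδ MCD replicate 2 it shrank to -0.22 against Lyz2 and -0.47 against Csf1r, and without replicate 4 it was -4.19 and -3.96.

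Nearly all of the resident signal in γδ MCD replicate 4 was Vsig4, with 411 of 414 counts, the other 3 being Cd5l. Without Vsig4 the remaining 4 genes had 1.33 and 0.171 counts per 1000 Lyz2 counts in γδ MCD, against 23.9 and 8.18 in γδ control libraries. Both MCD libraries were then below both control libraries, with a difference in mean log2 ratio of -4.75 against Lyz2 and -4.77 against Csf1r. Against Lyz2 the SD was 1.95 in γδ MCD and 1.10 in γδ control libraries. Vsig4 was singled out for its values here, and leaving it out moved the difference most. Without Clec4f, Timd4, Marco or Cd5l instead, the difference against Lyz2 was -1.78, -2.13, -2.22 or -3.14. All 3 C1q genes were kept in their ratios. They had 9.91 and 34.2 counts per 1000 Lyz2 counts in γδ MCD, against 165 and 140 in γδ control libraries, and 59.4 and 147 per 1000 Csf1r counts, against 736 and 826. The difference in mean log2 ratio was -3.04 against Lyz2 and -3.06 against Csf1r, and it stayed between -3.94 and -2.15 with any 1 γδ library left out. The C1q ratios were added after the values had been seen. Lyz2 and Csf1r kept a similar ratio to each other, 6.00 and 4.31 Lyz2 counts per Csf1r count in γδ MCD, against 4.45 and 5.92 in γδ control libraries. With 2 libraries a side, no exact permutation test over samples could give a 2-sided p under 0.333, and these ratios are given with no test.

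**Figure D3:**
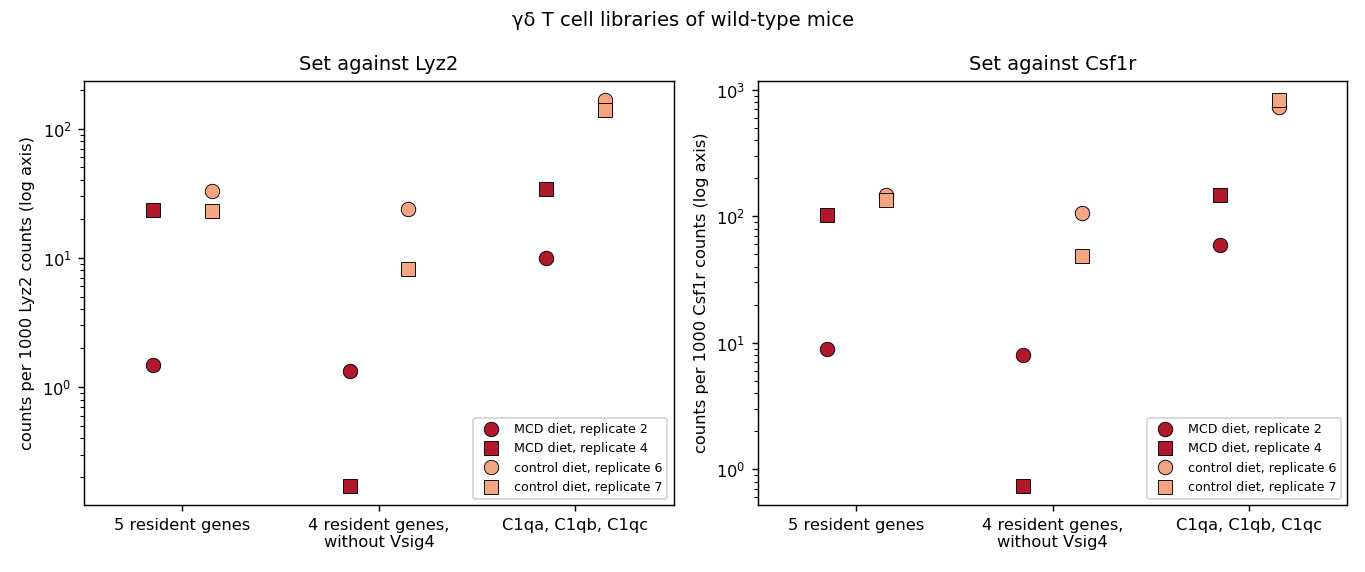
Counts of the 5 resident Kupffer genes, of the same genes without Vsig4 and of the 3 C1q genes, per 1000 counts of Lyz2 (left panel) or Csf1r (right panel), in each of the 4 γδ libraries; the vertical axes are logarithmic, dark points are MCD and light points control libraries, and shapes tell replicates apart. With all 5 genes the MCD replicate 4 sits near the control libraries (23.6 per 1000 Lyz2 counts), without Vsig4 it is the lowest (0.171), and for the C1q genes both MCD libraries lie below both control libraries.

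Other cell types' genes also differed between these γδ libraries. The sinusoidal endothelium list summed to 224 and 264 CPM in γδ MCD, against 1044 and 1879 CPM in γδ control libraries, beside the lower resident genes and C1q genes. All 15 of its tested members were lower on the MCD diet (median log2 fold change -5.50), DESeq2 called 11 of them, and Kdr, Oit3, Flt4, Bmp2 and Lyve1 were at 0 in both MCD libraries. The B and plasma cell list summed to 282 and 493 CPM in γδ MCD, against 630 and 661 CPM in γδ control libraries, with 8 of 9 members lower. Neutrophil genes, beside Lyz2, summed to 101 and 187 CPM in γδ MCD, against 33.7 and 64.7 CPM in γδ control libraries, with 4 of 5 tested members higher. The defining neutrophil genes Ly6g, Mpo, Camp, Ltf and Retnlg were at 0 in all 4 γδ libraries, while S100a9 had 34 and 1019 counts in γδ MCD, against 0 and 48 counts in γδ control libraries. The list of genes shared by T cells summed to 1555 and 1578 CPM in γδ MCD, against 2490 and 2196 CPM in γδ control libraries, with 5 of 6 members lower. The erythroid list summed to 0.743 and 0 CPM in γδ MCD, against 15.1 and 7.31 CPM in γδ control libraries, with all 3 tested members lower. None of the genes in the neutrophil, B and plasma cell, sinusoidal endothelium, T cell and erythroid lists passed in edgeR. The part of these cells in the diet differences of the members was not tested.

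Further macrophage genes went both ways. Of the other 11 Kupffer cell genes tested, 6 were higher and 5 lower on the MCD diet in γδ libraries, and 0 passed in either direction. Hmox1, which degrades heme, read 65.5 and 80.5 CPM in γδ MCD, against 4.02 and 6.66 CPM in γδ control libraries (13.7-fold, adjusted p = 0.218). Slc40a1, the iron exporter ferroportin, read 0.165 and 2.08 CPM against 3.97 and 36.2 CPM (adjusted p = 0.315). Adgre1, which encodes F4/80, read 163 and 12.2 CPM against 28.0 and 66.7 CPM, so its groups overlapped.

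The list of monocyte-derived macrophage genes had 11 of 15 tested members higher on the MCD diet and 4 lower, with a median log2 fold change of 0.61 against -0.06 over all genes, and 0 passed. Its summed level was 1969 and 1403 CPM in γδ MCD, against 728 and 998 CPM in γδ control libraries, without overlap. Ccr2 and Fn1, given below, held much of this sum. Gene by gene, 3 tested members did not overlap upwards and 3 downwards, against 11.1% and 22.1% of all genes. CD4+ libraries also carried genes of this list, at 78.3 to 216 CPM summed, with Ccr2 alone at 34.3 to 124 CPM. In γδ libraries Ccr2 read 633 and 317 CPM on the MCD diet, against 245 and 397 CPM on the control diet, with overlap. The part of T cells in this sum was not tested. Fn1, fibronectin, read 621 and 406 CPM in γδ MCD, against 38.0 and 151 CPM in γδ control libraries (5.44-fold, adjusted p = 0.169). Clec4e, a receptor for dead cells and mycobacterial lipid, read 51.3 and 107 CPM against 5.19 and 1.79 CPM (adjusted p = 0.202). Itgax went the other way, at 52.7 and 64.9 CPM in γδ MCD, against 122 and 116 CPM in γδ control libraries. Among phagocytosis genes 8 of 13 were higher and 5 lower, with 0 called. Cd68, a lysosomal protein of macrophages, read 216 and 117 CPM in γδ MCD, against 36.7 and 63.7 CPM in γδ control libraries, and the mannose receptor Mrc1, which sinusoidal endothelium also carries, read 15.02 and 7.86 CPM against 92.9 and 141 CPM (adjusted p = 0.272).

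The genes around CSF1R signalling had 6 of 9 members higher and 3 lower, with 0 called. Spi1, which encodes PU.1, read 51.2 and 56.6 CPM in γδ MCD, against 19.7 and 19.8 CPM in γδ control libraries (adjusted p = 0.484). Of the complement list apart from C1q, 5 of 7 tested members were higher and 2 lower, again with 0 called. C3, the source of the fragments that Vsig4 binds, read 266 and 97.1 CPM in γδ MCD, against 78.1 and 279 CPM in γδ control libraries, with overlap. C1ra and C1s1, the proteases that join C1q in the first complement complex, C2 and C4b were too scarce to be tested, as were Folr2, Il34 and Trem2.

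**Figure D4:**
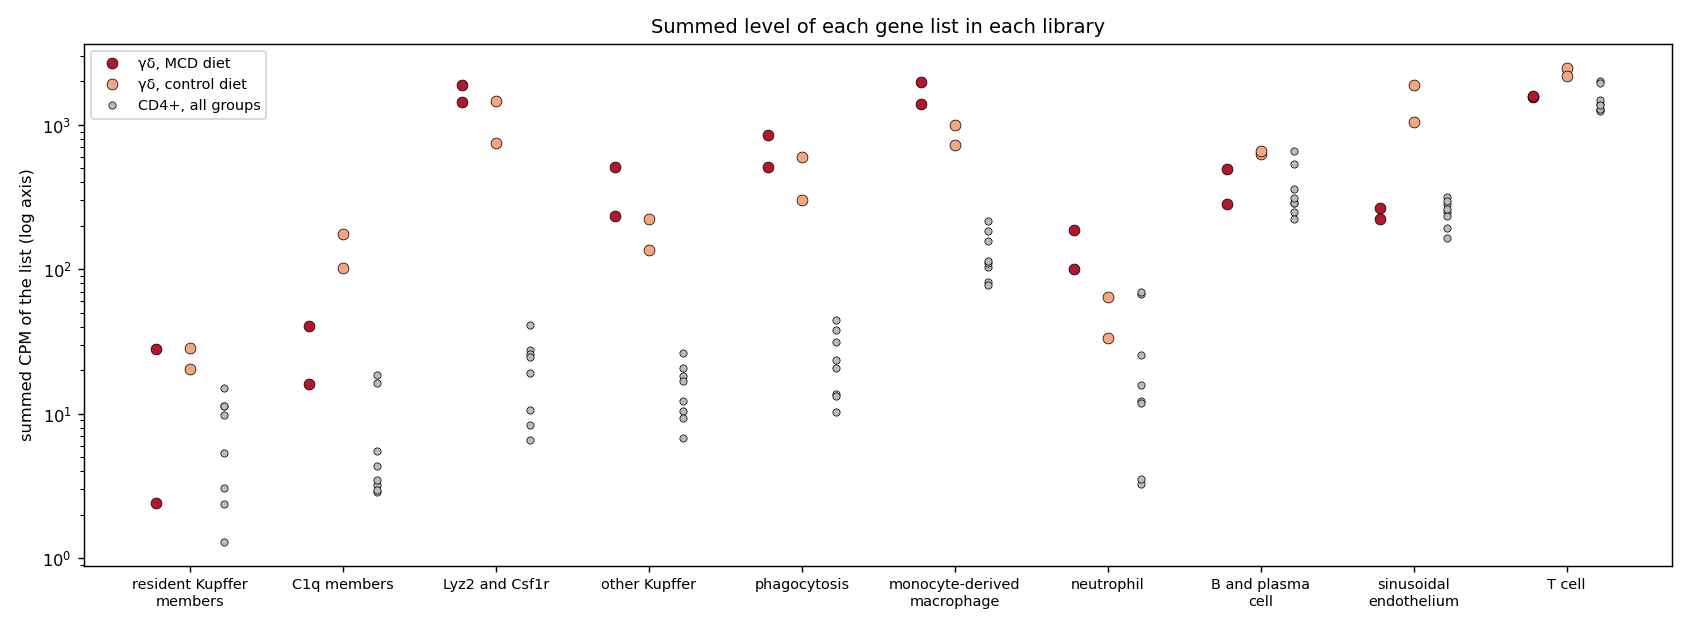
Summed CPM of each gene list (logarithmic vertical axis) in the γδ MCD, γδ control and CD4+ libraries, with 1 point per library. The C1q members and the sinusoidal endothelium list lie lower, and the monocyte-derived macrophage list higher, in both γδ MCD libraries than in both γδ control libraries, while the resident Kupffer members are split (2.39 and 27.8 CPM in γδ MCD, 20.3 and 28.6 CPM in γδ control).

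γδ libraries carried far more of the general macrophage genes than CD4+ libraries of wild type mice on the same diet. On the MCD diet Lyz2 read 1616 and 1178 CPM in γδ libraries, against 5.60 and 2.59 CPM in WT CD4+ libraries, 341-fold (log2 fold change 8.38, SE 0.89, edgeR adjusted p = 0.000441). Csf1r read 269 and 273 CPM, against 2.75 and 4.02 CPM, 80.2-fold (log2 fold change 6.28, SE 0.62, adjusted p = 0.000281). These 2 of 9 members passed, both higher, among 239 higher genes in all (1.47%). On the control diet the same 2 members passed, among 73 higher genes (0.45%): Lyz2 at 616 and 1252 CPM in γδ, against 14.8 and 20.6 CPM in WT CD4+ libraries (52.7-fold, adjusted p = 0.00333), and Csf1r at 138 and 212 CPM against 11.04 and 3.95 CPM (23.4-fold, adjusted p = 0.00171). Both calls held in each of the 14 alternative settings run for each. Lists of other cell types also differed between these libraries. On the MCD diet the neutrophil list summed to 101 and 187 CPM in γδ, against 15.7 and 25.7 CPM in WT CD4+ libraries, with 4 of 5 tested members higher and 0 passing, and the sinusoidal endothelium list summed to 224 and 264 CPM in γδ, against 261 and 299 CPM, with 7 of 15 higher, 6 lower and 1 passing. On the control diet the sinusoidal endothelium list summed to 1044 and 1879 CPM in γδ, against 315 and 232 CPM in WT CD4+ libraries, with 14 of 15 tested members higher and 1 passing, and the neutrophil list to 33.7 and 64.7 CPM in γδ, against 67.1 and 69.3 CPM. Their part in the difference was not tested.

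On the MCD diet C1qb was 13.8-fold and C1qc 4.38-fold higher in γδ than in WT CD4+ libraries without overlap. C1qa overlapped there, and none of these genes passed. All 3 C1q genes were higher in γδ than in WT CD4+ libraries on the control diet, without overlap, but did not pass. Of all genes, 14.5% did not overlap upwards on the MCD diet and 20.1% on the control diet. C1qb read 53.3 and 49.2 CPM in γδ control, against 3.08 and 0.217 CPM in WT CD4+ control libraries (31.1-fold, adjusted p = 0.394). C1qc read 45.4 and 115.5 CPM against 15.4 and 2.64 CPM (8.91-fold, adjusted p = 0.368). C1qa was at 0 in both WT CD4+ control libraries and at least 49.5-fold higher in γδ control libraries (adjusted p = 0.389). DESeq2 called C1qb and C1qc on the control diet besides Lyz2 and Csf1r, against 3.73% of genes higher.

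Of the resident genes, none passed in edgeR between the cell types on either diet. On the control diet Clec4f read 7.88 and 2.44 CPM in γδ, against 2.71 and 1.08 CPM in WT CD4+ libraries, and the values overlapped (2.72-fold, adjusted p = 0.836). Cd5l read 6.51 and 5.36 CPM in γδ control, against 1.93 and 5.16 CPM in WT CD4+ control libraries, without overlap (1.67-fold higher, adjusted p = 0.937). Vsig4 read 5.54 and 18.4 CPM against 4.69 and 5.03 CPM without overlap (2.46-fold higher, adjusted p = 0.841). Timd4 had 4 and 45 counts in γδ control, against 7 and 2 counts in WT CD4+ control libraries, and overlapped. On the MCD diet Clec4f, at 0 in both γδ libraries, had 47 and 10 counts in WT CD4+ libraries and was at least 6.17-fold lower in γδ (adjusted p = 0.165, DESeq2 0.0306). Vsig4, at 3 and 411 counts in γδ MCD, was at 0 in both WT CD4+ MCD libraries (at least 97.4-fold higher, adjusted p = 0.0715, DESeq2 7.73e-05). Without γδ MCD replicate 2 the edgeR test called Vsig4 as well (adjusted p = 0.00434). DESeq2 called 3 members higher (8.6% of genes) and 1 lower (12.5%) on the MCD diet.

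Relative to Lyz2, CD4+ libraries held more of the resident genes than γδ libraries. The 5 genes had 43.4 to 4092 counts per 1000 Lyz2 counts in the 8 CD4+ libraries, above all 4 γδ libraries. Per 1000 Csf1r counts they had 114 to 2879 in CD4+ libraries, against 8.88 to 147 in γδ libraries, and KO MCD replicate 1, the lowest of the CD4+ libraries, lay below both γδ control libraries. The absolute counts behind this were small, with 56 to 645 Lyz2 counts in CD4+ libraries, against 12109 to 23117 in γδ libraries. Of the further lists on the MCD diet, 2 of 11 Kupffer cell genes (Hmox1 and Hpgd), 4 of 9 genes around CSF1R (Spi1, Tyrobp, Fcer1g and Lyn), 3 of 7 complement genes (C3, C5ar1 and Itgam), 2 of 13 phagocytosis genes (Cd68 and Msr1) and 5 of 15 monocyte-derived macrophage genes (Ccr2, Fn1, Lpl, Cx3cr1 and Clec4e) passed, all higher in γδ than in WT CD4+ libraries. On the control diet the counts were 0 of 11, 3 of 9 (Tyrobp, Fcer1g and Lyn), 1 of 7 (Itgam), 0 of 13 and 2 of 15 (Fn1 and Cx3cr1). Over all genes, 1.47% passed as higher in γδ on the MCD diet and 0.45% on the control diet. Which cells carried the genes of these lists was not tested.

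In CD4+ T cells of γδTCR-/- mice, Clec4f, Cd5l and Marco were lower on the MCD diet without overlap, and C1qb higher, but none of these differences passed the test. Clec4f had 9 and 0 counts in KO MCD libraries, against 55 and 85 counts in KO control libraries, 16.3-fold lower in mean CPM without overlap (log2 fold change -3.50, adjusted p = 0.787). Cd5l had 11 and 33 counts in KO MCD, against 87 and 163 counts in KO control libraries, 5.97-fold lower without overlap (adjusted p = 0.876). Marco, with 1 and 0 counts in KO MCD, had 15 and 50 counts in KO control libraries, its highest level in any group, the KO control level being 68.4 times the KO MCD level (counting interval at 95%, 11.8 to 2741; adjusted p = 0.787). Vsig4 had 7 and 33 counts in KO MCD, against 76 and 5 counts in KO control libraries, and overlapped.

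C1qb read 5.85 and 2.76 CPM in KO MCD, against 0.0975 and 2.07 CPM in KO control libraries, 3.98-fold higher without overlap (log2 fold change 1.90, adjusted p = 0.892). C1qc read 10.4 and 2.76 CPM against 2.93 and 1.39 CPM, with overlap (adjusted p = 0.842). Lyz2 read 29.7 and 10.03 CPM in KO MCD, against 19.0 and 3.65 CPM in KO control libraries, with overlap, and Csf1r read 11.3 and 9.20 CPM against 8.73 and 6.97 CPM without overlap (1.31-fold higher, adjusted p = 0.948). In all, 0 of 9 members passed, beside 6 of 16218 genes (0.037%). At an unadjusted p under 0.05 there were also 0 members, against 6.06% of genes, and DESeq2 called 0, against 1.5% of genes higher and 0.58% lower. Among the 9 members 2 did not overlap upwards and 3 downwards, against 20.8% and 18.1% of all genes. The sums of 7 dendritic cell genes ran between 8.82 and 76.9 CPM over the 8 CD4+ libraries, and 5 of 6 tested were higher on the MCD diet in KO libraries; their part in the C1q values was not tested.

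In CD4+ T cells of wild type mice 8 of 9 members were lower on the MCD diet and 0 higher, with a median log2 fold change of -0.90 against 0 over all genes, of which 49% were lower and 49.7% higher. Vsig4 had 0 and 0 counts in WT MCD, against 102 and 116 counts in WT control libraries, at least 34.0-fold lower (edgeR adjusted p = 1, DESeq2 adjusted p = 0.0237). Lyz2 read 5.60 and 2.59 CPM in WT MCD, against 14.8 and 20.6 CPM in WT control libraries, 4.33-fold lower without overlap (log2 fold change -2.09, adjusted p = 1). Csf1r read 2.75 and 4.02 CPM against 11.04 and 3.95 CPM, with overlap (adjusted p = 1). edgeR called 0 of 9 members and 0 of all genes (0%), and at an unadjusted p under 0.05 there were these 3 members, against 1.19% of genes lower. DESeq2 called 1 member lower, against 0.119% of genes. Without the filter on low counts edgeR called Lyz2 (adjusted p = 2.26e-06), against 0.0425% of the 25883 genes then tested.

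The C1q genes, Cd5l and Clec4f did not separate by diet in wild type CD4+ T cells. Cd5l had 0 and 106 counts in WT MCD, against 42 and 119 counts in WT control libraries, and Clec4f had 47 and 10 counts against 59 and 25 counts. C1qb had 34 and 0 counts in WT MCD, against 67 and 5 counts in WT control libraries. C1qc had 26 and 94 counts in WT MCD, against 335 and 61 counts in WT control libraries. All of these overlapped. Timd4, too scarce to be tested, had 0 and 0 counts in WT MCD, against 7 and 2 counts in WT control libraries. Beside them, 12 of 15 sinusoidal endothelium genes and 8 of 9 hepatocyte genes were lower on the MCD diet in the same libraries, and their part was not tested.

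On the MCD diet, Lyz2, Csf1r and Vsig4 were higher in γδTCR-/- than in wild type CD4+ T cells at an unadjusted p under 0.05, 3 of 9 members against 1.13% of genes higher. Lyz2 read 29.7 and 10.03 CPM in KO MCD, against 5.60 and 2.59 CPM in WT MCD libraries (4.85-fold, adjusted p = 1). Csf1r read 11.3 and 9.20 CPM against 2.75 and 4.02 CPM (3.03-fold, adjusted p = 1). edgeR called 0 of 9 members, 0 of all genes (0%), and DESeq2 0 members, against 0.138% of genes higher and 0.161% lower. Without the filter edgeR called Lyz2 (adjusted p = 9.45e-08), against 0.0232% of genes higher. In the same comparison all 6 tested dendritic cell genes were higher in KO MCD libraries, with sums of 21.0 and 76.9 CPM in KO MCD, against 11.5 and 14.3 CPM in WT MCD libraries. The B and plasma cell list had 7 of 9 members higher (248 and 288 CPM in KO MCD, against 313 and 223 CPM in WT MCD), and the sinusoidal endothelium list 9 of 15 (166 and 194 CPM in KO MCD, against 261 and 299 CPM in WT MCD), with 0 passing in any of these lists. Their part in the values of Lyz2, Csf1r and Vsig4 was not tested. On the control diet 0 members passed, beside 4 of 16218 genes (0.0247%), and 0 had an unadjusted p under 0.05, against 4.03% of genes.

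Whether diet acted differently by cell type or genotype was tested directly. The log2 difference between the diet effects in γδ and in WT CD4+ T cells was 2.67 for Lyz2 (adjusted p = 0.400), 1.75 for Csf1r (adjusted p = 0.421), 5.83 for Vsig4 (adjusted p = 0.400) and -5.27 for Clec4f (adjusted p = 0.421). edgeR called 0 of 9 members, 0 of all genes (0%), and 4 members had an unadjusted p under 0.05, against 10.6% of all genes. DESeq2 called Vsig4 (adjusted p = 0.0288), against 1.51% of genes higher, and without the filter edgeR called Lyz2 (adjusted p = 7.05e-06), against 0.22%. Between the genotypes of CD4+ T cells edgeR again called 0 of 9 members and 0 of all genes (0%), and 3 members had an unadjusted p under 0.05, against 2.85% of genes higher. The difference was 2.90 for Lyz2 (adjusted p = 1), which passed without KO control replicate 1 (adjusted p = 0.0348) and without the filter (adjusted p = 2.42e-07), against 0.108% of genes higher. These comparisons share the WT CD4+ libraries, whose Lyz2 counts, 114 and 56 in WT MCD against 322 and 476 in WT control libraries, enter both.

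Across all 12 libraries, the genes whose log2(CPM + 1) was most like that of the summed resident genes were Max (Pearson's r = 0.926), Supt7l (0.903), Lpp (0.886), Cd9 (0.852), Smc1a (0.851) and Rtp4 (0.847). Max, a partner of MYC, read 146 and 514 CPM in γδ MCD, against 498 and 565 CPM in γδ control libraries, so it was low in γδ MCD replicate 2, as the resident sum was (2.39 CPM). Those most like Lyz2 were C3 (0.985), Il23r (0.972), Mef2a (0.970), Ifitm3 (0.967), Lyn (0.966) and Pilra (0.965). γδ and CD4+ libraries form separate clusters for Lyz2, so these values describe the gap between the cell types: C3 read 78.1 to 279 CPM in γδ and 0.0462 to 6.17 CPM in CD4+ libraries. The genes are the highest among all genes tested, and no p is given.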

How the data were processed

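RNA of 12 libraries was analysed per gene. Per the submitters' processing notes, bcl2fastq, STAR, featureCounts and DESeq2 were used on mm10 (GRCm38), with no versions given. The authors deposited raw counts, used in every main test, and FPKM, used to compare genes per length and as an alternative. The deposited FPKM followed DESeq2-type size factors (ratio 0.996 to 1.00 to size factors recomputed here, 0.632 to 1.28 to library totals). Gene positions came from GENCODE vM21.

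Genes were kept by filterByExpr (minimum count 10, minimum total 15), which left 16218, Timd4 not among them. All 12 libraries were fitted in edgeR 4.0.16 under R 4.3.3, each group with its own coefficient (quasi-likelihood test, 2-sided, TMM scaling). P-values were adjusted by Benjamini-Hochberg over all genes kept, and called at 0.05. A prior count of 2 went into the log2 fold changes, while standard errors and intervals came from the same fit without it. Folds are ratios of mean CPM, taken against 3 counts per library where a group was at 0. Log2 ratios of the resident and C1q genes to Lyz2 and Csf1r used counts plus 0.5. The test was tried on simulated data.

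The members and lists were chosen with earlier results of these data known. All 10 members are named, with up to 5 genes of each further macrophage list by mean CPM, any that passed, the 6 genes most like each pattern by r, Lyz1, and marker lists of other cells by count and sum; 1 gene that this rule names is not reported here. The alternatives tried were other filters (none, or a mean count of 50 or more), other scalings (RLE, library size), other tools (DESeq2 1.42.0, limma-voom in limma 3.58.1, and limma on log2 FPKM with 1 or 0.1 added), mitochondrial genes left out, a fit of the compared groups alone, a replicate block, and each library left out in turn. The C1q ratios and the comparison of diet effects between γδ and knockout CD4+ T cells were added after the values had been seen. Replicate libraries of γδ MCD correlated at r = 0.754, those of γδ control at 0.855 and those of each CD4+ group at 0.888 to 0.916 (log2(CPM + 1), across genes, which are not independent replicates).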

Additional observations from a re-analysis of the deposited data

Results flagged for a closer look

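C1qb stood out because the diets went opposite ways in different cells, with no overlap on either side. Of all genes, 22.1% did not overlap downwards in γδ cells and 20.8% did not overlap upwards in KO CD4+ cells. C1qb read 10.4 and 12.6 CPM in γδ MCD, against 53.3 and 49.2 CPM in γδ control libraries. It read 5.85 and 2.76 CPM in KO CD4+ MCD, against 0.0975 and 2.07 CPM in KO CD4+ control libraries. The lower KO CD4+ control value rested on 2 counts. With a library left out, the log2 fold change in KO CD4+ cells lay between 0.99 and 4.47. The log2 difference between the diet effects, γδ minus KO CD4+, was -4.04 (edgeR adjusted p = 0.458), a comparison added after the values had been seen. C1qc differed in the same direction (-4.26, adjusted p = 0.283).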

How the results depend on the processing

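Of 999 log2 fold changes of members recomputed under other settings, 949 kept their direction and their side of the threshold, 34 changed sign (25 of these with a library left out) and 16 passed only under the other setting. The calls of Lyz2 and Csf1r between γδ and WT CD4+ libraries held in all settings run, with adjusted p up to 0.0432 on the MCD and 0.0402 on the control diet. DESeq2 called 1 member between the diets in γδ cells, 1 in WT CD4+ cells and 1 for the difference between these diet effects, against 0 each in edgeR, and 4 members between γδ and WT CD4+ cells on each diet, against 2 in edgeR. Without the filter edgeR called 1 member (Lyz2) between the diets in WT CD4+ cells, 1 between genotypes on the MCD diet and 1 in each difference of diet effects. It then also called Vsig4 higher in γδ than in WT CD4+ cells on the MCD diet (adjusted p = 0.00486), against 2.38% of genes higher. The cause was not tested. On log2(FPKM + 1), limma called C1qb between γδ and WT CD4+ cells on the control diet (adjusted p = 0.0172). With a library left out, edgeR called 0 to 1 members in either difference of diet effects and 2 to 3 between γδ and WT CD4+ cells on the MCD diet. Over all genes, edgeR called 0 between the diets in γδ cells, against 249 higher and 306 lower of 25883 without the filter and 803 higher and 1302 lower of 13073 in DESeq2. Higher and lower genes in DESeq2 numbered 23 and 17 between the diets in WT CD4+ cells (0 in edgeR), 192 and 74 in KO CD4+ cells (5 and 1), 18 and 21 between the genotypes on the MCD diet (0) and 27 and 95 on the control diet (1 and 3), 1178 and 1709 between γδ and WT CD4+ cells on the MCD diet (239 and 191) and 499 and 418 on the control diet (73 and 33), 193 and 452 for the diet effect in γδ minus WT CD4+ cells (0) and 48 and 23 for that in KO minus WT CD4+ cells (0). Scaling by library size moved the median log2 fold change of all genes by -0.21 between the diets in γδ cells, by 0.29 in KO CD4+ cells, by -0.34 between the genotypes on the control diet, and between γδ and WT CD4+ cells by -0.67 on the MCD and by -0.53 on the control diet.

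Apart from libraries left out, signs changed for Vsig4 between the diets in γδ cells (log2 fold change -1.70 in limma-voom, -0.67 with log2(FPKM + 1), -1.54 with log2(FPKM + 0.1)), for Csf1r between genotypes on the control diet (-0.28 with library-size scaling), and for Cd5l: in limma-voom it was 1.37 between genotypes on the MCD diet (0.060 with log2(FPKM + 0.1)), 0.98 between γδ and WT CD4+ cells on the MCD diet, 0.089 for the diet effect in γδ minus WT CD4+ cells and 0.51 for that in KO minus WT CD4+ cells. With a library left out, the log2 fold change between the diets lay between -5.12 and 1.32 for Vsig4 and between -6.08 and 0.43 for C1qa in γδ cells. In WT CD4+ cells it lay between -1.83 and 0.33 for Clec4f, -5.16 and 0.46 for Cd5l, -4.10 and 1.56 for C1qb and -2.72 and 0.086 for C1qc. In KO CD4+ cells it lay between -2.29 and 1.55 for Vsig4 and -0.17 and 2.38 for Lyz2. Between the genotypes it lay between -2.17 and 3.45 for Cd5l and -0.026 and 2.27 for C1qc on the MCD diet, and between -3.13 and 1.89 for C1qb, -2.21 and 0.10 for Lyz2 and -0.49 and 0.98 for Csf1r on the control diet. Between γδ and WT CD4+ cells on the MCD diet Cd5l lay between -3.12 and 3.58. The diet effect in γδ minus WT CD4+ cells lay between -3.83 and 2.86 for Cd5l, -3.70 and 1.96 for C1qb and -2.78 and 0.026 for C1qc, and that in KO minus WT CD4+ cells between -2.92 and 2.69 for Cd5l. The resident ratio in γδ cells was -4.75 against Lyz2 and -4.77 against Csf1r without Vsig4, and lay between -4.19 and -0.22 and between -3.96 and -0.47 with a library left out. With any other of the 5 genes left out it lay between -3.14 and -1.78 against Lyz2 and between -3.15 and -1.80 against Csf1r.

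The KO libraries share the replicate numbers 1 and 2 across diets, but no label says that a number pairs samples, and deviations of same-numbered libraries did not correlate (r = -0.000833 over 16218 genes). A fit of the KO libraries with the number as a block called 0 of 8 members, as without it, and gave log2 fold changes of -3.89 for Clec4f (adjusted p = 0.655) and 2.57 for C1qb. Resident genes had 411 counts or fewer in any γδ library. The floor of 3 counts, a chosen setting, stood there for 0.153 to 0.248 CPM, and levels below it were counted but are uncertain.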

Other observations

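Single dendritic cell and hepatocyte genes differed between the diets in γδ libraries in either direction, and none passed. Flt3, a growth factor receptor of dendritic cell precursors, had 219 and 168 counts in γδ MCD, against 1 and 0 counts in γδ control libraries (ratio of 546, 95% counting interval 97.5 to 21639, edgeR adjusted p = 0.163). Clec9a had 0 and 13 counts in γδ MCD, against 8 and 229 counts in γδ control libraries, with overlap. Among hepatocyte genes, haptoglobin (Hp) had 937 and 646 counts in γδ MCD, against 26 and 27 counts in γδ control libraries (43.4-fold higher, adjusted p = 0.192), while albumin (Alb) had 127 and 18 counts, against 416 and 1014 counts (6.51-fold lower, adjusted p = 0.282).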
